A study of Mus musculus with 9 samples.

Results

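The genes of cholesterol and fatty acid synthesis were followed in mouse embryonic stem cells that carry a Gzf1 knockout and in wild-type cells. The members were 29 named genes, taken as the rows of the deposited count table whose symbol, or any symbol of a merged row, was on the list. All 29 were found among 30232 gene rows, and all 29 were among the 12645 rows that passed a filter on low counts. The 9 libraries fell into 2 runs that coincide with the cells used. In run2, all from RGM cells, there were 2 knockout libraries (replicates 1 and 2) and 2 wild-type libraries (replicates 1 and 2). In run1 there were 3 knockout libraries of V6.5 cells (replicates 3, 4 and 5), 1 wild-type library of V6.5 cells (replicate 3) and 1 wild-type library of a line labelled Cas9-GFP (replicate 4). All cells were grown with LIF and serum on irradiated fibroblast feeders, which were depleted at harvest. The sources used here do not state where Gzf1 was edited or how many clones were used. Transcripts were counted at their 3' ends (MARS-seq2.0), and levels are given as CPM, counts scaled to the library total. RGM cells and run2 cannot be told apart from one another, so that every difference below between RGM and run1 cells is one of line, run or both.

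Cholesterol is built from acetyl-CoA, which enters the mevalonate pathway through HMG-CoA, is assembled into isoprenoids and then into squalene, and is finally closed and trimmed to the sterol ring. The same acetyl-CoA, released from citrate, feeds fatty acid synthesis. Both branches are controlled by the SREBP transcription factors, which SCAP escorts out of the endoplasmic reticulum when sterols are low and which INSIG proteins hold back when sterols are high. SREBP2 acts mainly on cholesterol genes and SREBP1 mainly on fatty acid genes, and growing stem cells draw on both branches for new membrane.

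The promoters of 4 members are shown because these genes hold the largest differences between RGM and run1 cells in each direction (Hmgcs1 higher, Nsdhl and Fasn lower) and the main regulator of the sterol branch (Srebf2, higher). Each window runs from 250 bases before to 50 bases after a RefSeq transcript start on GRCm38.p6, the build also called mm10, and is written 5′ to 3′ on the strand of the gene. Capitals mark TCACNCCAC, a form of the sterol regulatory element that SREBPs bind, and CCAAT, the motif of NF-Y, each searched on both strands, so that CCAAT also appears as ATTGG. In Fasn a pair of CCAAT matches on opposite strands overlap in 1 run of capitals, and the Fasn window lies inside the annotated gene body.
Hmgcs1, chr13:119690101-119690400, plus strand: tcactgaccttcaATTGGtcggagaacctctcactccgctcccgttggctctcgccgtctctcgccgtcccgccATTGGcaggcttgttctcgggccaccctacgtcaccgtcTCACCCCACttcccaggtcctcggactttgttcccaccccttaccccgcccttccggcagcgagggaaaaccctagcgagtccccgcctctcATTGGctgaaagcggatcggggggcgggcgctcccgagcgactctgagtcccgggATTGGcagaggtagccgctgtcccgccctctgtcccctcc
Srebf2, chr15:82147019-82147318, plus strand: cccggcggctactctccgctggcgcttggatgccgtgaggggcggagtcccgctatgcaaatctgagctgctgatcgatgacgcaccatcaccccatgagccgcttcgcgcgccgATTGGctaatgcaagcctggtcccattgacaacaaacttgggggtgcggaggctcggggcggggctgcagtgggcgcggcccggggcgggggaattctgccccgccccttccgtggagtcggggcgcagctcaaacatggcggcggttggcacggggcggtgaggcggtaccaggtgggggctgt
Nsdhl, chrX:72918271-72918570, plus strand: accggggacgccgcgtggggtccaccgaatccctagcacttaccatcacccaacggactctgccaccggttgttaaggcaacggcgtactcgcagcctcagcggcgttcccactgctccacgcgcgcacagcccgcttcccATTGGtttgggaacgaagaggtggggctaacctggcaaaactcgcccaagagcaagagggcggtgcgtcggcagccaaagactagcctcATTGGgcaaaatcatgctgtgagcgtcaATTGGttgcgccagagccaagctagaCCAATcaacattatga
Fasn, chr11:120824498-120824797, minus strand: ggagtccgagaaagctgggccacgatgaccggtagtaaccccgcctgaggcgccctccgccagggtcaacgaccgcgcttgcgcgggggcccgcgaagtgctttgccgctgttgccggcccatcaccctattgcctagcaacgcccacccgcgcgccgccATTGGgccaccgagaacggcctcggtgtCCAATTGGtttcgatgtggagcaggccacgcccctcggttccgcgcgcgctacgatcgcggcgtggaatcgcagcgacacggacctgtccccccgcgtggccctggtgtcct

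A RefSeq window could be matched for 24 of the 29 members. The TCACNCCAC form stood in 1 of these 24 members (4.17%), Hmgcs1, 137 bases before its start, against 1.44% of all 26994 genes with a window and 1.46% of the 9629 tested genes with one. CCAAT stood in 20 of the 24 (83.3%), against 41% of all genes and 43.2% of tested genes. It was found in 7 of the 7 members with a window that were higher in RGM cells, in 4 of the 7 that were lower and in 9 of the 10 without a call. GGGCGG, the motif of Sp1, which was searched on both strands and is not in capitals, stood in 19 of the 24 (79.2%), against 38.2% of all genes and 70.2% of tested genes. These are matches of letters within 300 bases, and binding was not measured.

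Library totals were 2568489 to 3704162 counts in RGM cells and 4872127 to 7072697 counts in run1. A floor of 3 counts corresponded to between 0.412 and 1.18 CPM, and all members lay above it in every library. Libraries of 1 genotype and run differed by more than sampling noise in every pair, so each was counted once. Since the labels name no separate cultures, p-values here may measure technical spread alone. Gzf1 itself was measured at 5.45 and 14.2 CPM in the RGM knockout and 28.6 and 30.0 CPM in the RGM wild-type libraries, against 1.66, 9.40 and 5.24 CPM in the run1 knockout and 8.11 and 18.7 CPM in the run1 wild-type libraries. Its knockout libraries lay below the wild-type libraries in RGM cells, while wild-type replicate 3 of run1 was exceeded by knockout replicate 4 (log2 fold change -1.45, SE 0.42, adjusted p = 0.9998 over all libraries). A 3' tag outside the edited part of a gene is no check of the edit. All 13 listed pluripotency markers were detected, with a summed level of 6529 to 7381 CPM in RGM and 6106 to 7774 CPM in run1 libraries. Of 20 fibroblast markers 19 were tested, and their summed level was 1571 to 2921 CPM in RGM and 976 to 1551 CPM in run1 libraries. Lum was at 0 in wild-type replicate 3, and the other 19 were detected in every library. The highest sum, 2921 CPM, was that of RGM knockout replicate 2. Between RGM and run1 cells 15 of the 19 were higher and 2 lower, with a median log2 fold change of 0.90. The share called was 89.5%, against 45.3% of all tested genes. By genotype 0 of the 19 passed, 16 values were positive and the median was 0.17. Over all tested genes 0.0316% passed by genotype, and 6656 of 12645 values were positive. Of the pluripotency markers 3 were higher in RGM cells and 2 lower (38.5% called, against 45.3% of all tested genes).

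Between libraries labelled Gzf1 knockout and wild type no member of either branch was called. Over all 9 libraries 0 of the 29 members passed the threshold of an adjusted p under 0.05 in edgeR's quasi-likelihood test, where 4 of the 12645 tested genes (0.0316%) passed. At an unadjusted p under 0.05 there were also 0 members, in edgeR and in DESeq2 alike, where edgeR had 293 of all tested genes (2.32%), and every member had an adjusted p of 0.9998. The log2 fold changes of the members, knockout over wild type, ran between -0.23 and 0.29, with SEs of 0.11 to 0.33. Of the 29 values 22 were positive and 7 negative, and their median was 0.05, against 0.01 over all tested genes. Of all tested genes 6656 of 12645 were positive. The members' values come from the same libraries, and their signs were not tested. The 95% interval of each member lay within 1 log2 unit of 0, and for 18 members it lay within 0.5. The lowest bound was -0.63, for Pmvk, and the highest was 0.82, for Idi1, the member with the fewest counts. In bulk RNA, fewer cells of a type and less RNA per cell cannot be told apart.

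**Figure D1:**
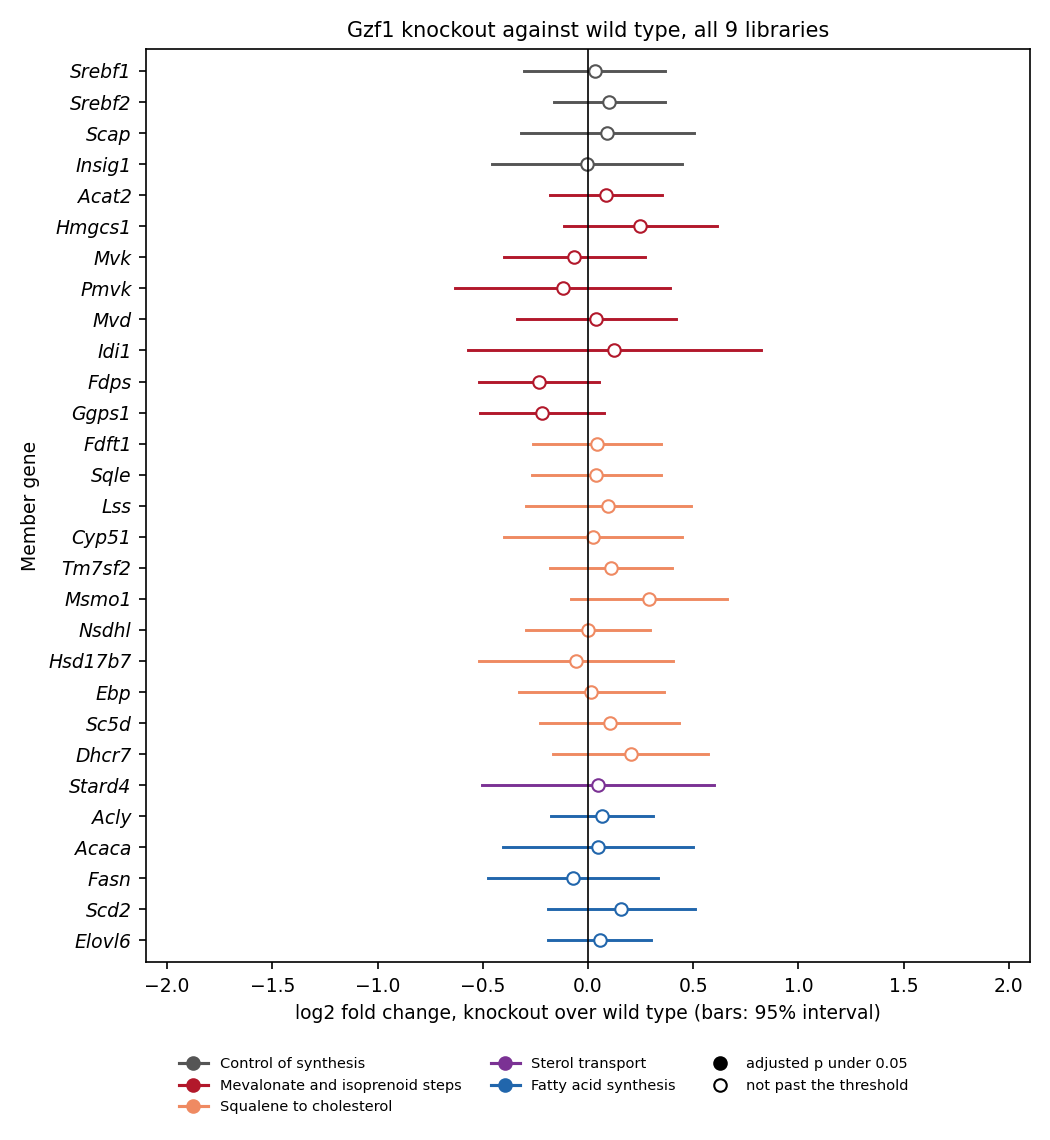
Log2 fold change of each of the 29 members, Gzf1 knockout over wild type, from all 9 libraries (x axis, log2 units; points are estimates, bars 95% intervals, colours the role in the pathway). Every point is open because 0 members passed the threshold, and all intervals include 0 and lie between -0.63 and 0.82.

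The smallest unadjusted p-values of the genotype comparison belonged to Fdps, Msmo1 and Ggps1. Fdps encodes farnesyl diphosphate synthase, which joins the isoprenoid units that feed sterols and prenylated proteins. It was measured at 199.6 and 187 CPM in the RGM knockout and 233 and 208 CPM in the RGM wild-type libraries, against 153, 99.6 and 124 CPM in the run1 knockout and 145 and 159 CPM in the run1 wild-type libraries. The knockout mean lay below the wild-type mean in either run, but among V6.5 libraries the wild-type value lay inside the range of the knockout libraries (log2 fold change -0.23, SE 0.13, unadjusted p = 0.101, adjusted p = 0.9998). Msmo1, the sterol C4-methyl oxidase, had 292 and 305 CPM in the RGM knockout and 273 and 271 CPM in the RGM wild-type libraries, against 251, 146 and 302 CPM in the run1 knockout and 173 and 176 CPM in the run1 wild-type libraries. Within RGM cells both knockout libraries lay above both wild-type ones, and in run1 the 3 knockout libraries fell on both sides of the wild-type pair (log2 fold change 0.29, SE 0.17, unadjusted p = 0.117, adjusted p = 0.9998). Ggps1 makes geranylgeranyl diphosphate, the longer lipid anchor of prenylated proteins, and was measured at 33.3 and 32.0 CPM in the RGM knockout and 37.7 and 40.7 CPM in the RGM wild-type libraries, against 33.7, 34.0 and 33.4 CPM in the run1 knockout and 36.4 and 40.3 CPM in the run1 wild-type libraries. It was the 1 member of 29 whose 5 knockout libraries all lay below the 4 wild-type libraries, a separation seen in either direction for 56 tested genes (0.443%). Ggps1 averaged 33.3 ± 0.795 CPM in knockout and 38.8 ± 2.05 CPM in wild-type libraries (SD, n = 5 and 4; log2 fold change -0.22, SE 0.14, edgeR adjusted p = 0.9998).

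By role, the genotype values of the steps between squalene and cholesterol were positive for 10 of 11 genes, Hsd17b7 being the exception at -0.06 (SE 0.22), and the list's median was 0.04. Nsdhl, counted among the positive ones at 0.0017, changed sign under another scaling. The mevalonate and isoprenoid steps were divided, with 4 of 8 positive and a median of -0.01. The 4 control genes had 3 positive values and a median of 0.06, and the 5 fatty acid genes had 4 positive values and a median of 0.06. No list held a member past the threshold, and the signs were not tested. Of all tested genes 6656 of 12645 had positive genotype values. Hmgcs1, the enzyme that makes HMG-CoA, had 0.25 (SE 0.17), Srebf2 had 0.10 (SE 0.12) and Fasn had -0.07 (SE 0.19), again as log2 fold changes of knockout over wild type. Stard4, which carries sterol between membranes, had 0.05 (SE 0.26), and was -0.19 without knockout replicate 3 and -0.05 without wild-type replicate 4.

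The genotypes were also compared within each run. Run2 holds RGM cells alone, whereas the wild-type pair of run1 is 1 V6.5 and 1 Cas9-GFP library set against 3 V6.5 knockout libraries, so line and genotype are partly mixed there. In RGM cells 0 members passed, beside 0 of all tested genes (0%). The members' median log2 fold change there was 0.09 with 23 of 29 values positive, against a median of 0.01 over all tested genes. The members' median log2 CPM, taken from the RGM mean, was 0.10 in knockout replicate 2 and -0.07 in wild-type replicate 2. Over all tested genes these 2 libraries were at 0.0067 and 0.0075. For the members, knockout replicate 1 was at 7.7e-05 and wild-type replicate 1 at -0.00095, so the lean lay in the libraries numbered 2. In run1 0 members passed, beside 2 of all tested genes (0.0158%), and the median was -0.0049 with 14 positive values and 15 negative, against 0.02 over all tested genes. Of all 12645 tested genes 6495 had positive values in RGM cells and 6623 in run1. Both contrasts had 0 members at an unadjusted p under 0.05 in edgeR and in DESeq2, where edgeR had 104 of all tested genes (0.822%) in RGM cells and 485 (3.84%) in run1. The difference between the 2 genotype effects, tested as an interaction, was called for 0 members and for 0 of all tested genes (0%), and the smallest unadjusted p of a member was 0.203, for Sqle. The RGM contrast rested on 2 libraries of each genotype, and its SEs of 0.17 to 0.55 for the members were wider than those over all libraries. Both contrasts came from 1 fit with 4 groups, whose estimate of spread was shared by all 9 libraries. The SEs in RGM cells therefore also carry the spread of run1. For members the highest library over the lowest was a median 1.25-fold in RGM and 1.60-fold in run1. A fit on the RGM libraries alone was not made.

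Between RGM and run1 cells the same 29 genes differed in both directions. With genotype as a term, 15 of 29 members (51.7%) passed between RGM and run1 cells, close to the 45.3% of all tested genes that passed. Of the 15, 8 were higher in RGM cells, namely Hmgcs1, Dhcr7, Hsd17b7, Insig1, Srebf2, Fdps, Lss and Msmo1. These are 8 of 29 members, where 2806 of all 12645 tested genes were higher. The 7 lower ones (24.1% of the members, against 23.1% of all tested genes) were Fasn, Nsdhl, Acaca, Scap, Sc5d, Elovl6 and Acly. The members' median log2 fold change was -0.01, against -0.02 over all tested genes. All 4 RGM libraries lay above all 5 run1 libraries for 6 members (20.7%), where 19.4% of tested genes did so, and below them for 7 members (24.1%), where 19.2% did so. The libraries overlapped for the other 16 members. The summed fibroblast markers, at 1571 to 2921 CPM in RGM and 976 to 1551 CPM in run1 libraries, moved with the same contrast, and their part in these differences was not tested.

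**Figure D2:**
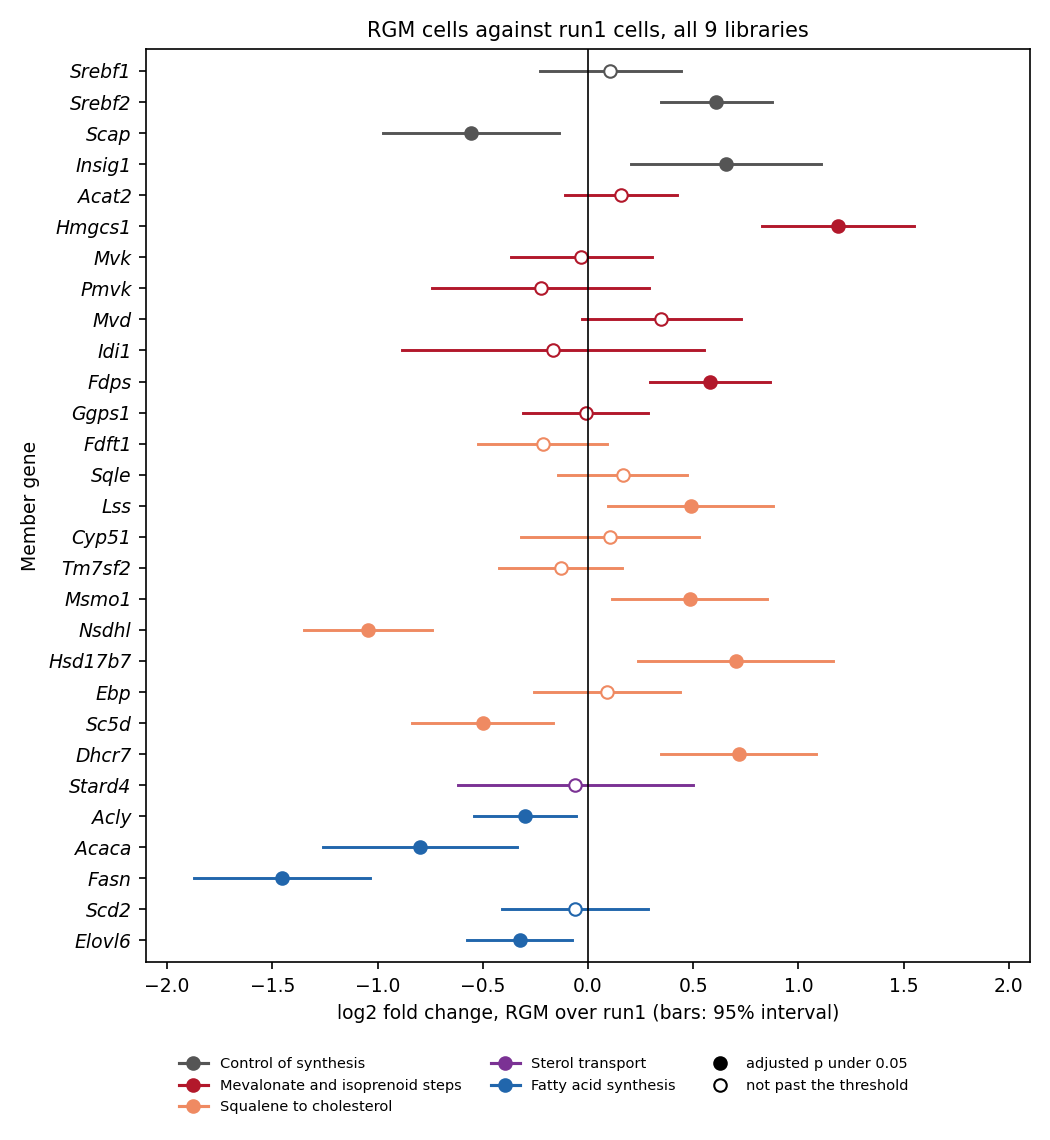
Log2 fold change of each of the 29 members, RGM over run1 cells, from all 9 libraries with genotype as a term (x axis, log2 units; points are estimates, filled where the adjusted p is under 0.05; bars 95% intervals; colours the role in the pathway). The 15 filled points lie on both sides of 0, Hmgcs1 at 1.19 being the highest and Fasn at -1.45 the lowest, and 4 of the 5 fatty acid genes are filled and lower, where 23.1% of all tested genes were lower.

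Of the 4 control genes, Srebf2 and Insig1 were higher in RGM cells and Scap was lower (75% called, against 45.3% of all tested genes). Srebf2 (chromosome 15, 82147269 to 82205379 on GRCm38.p6), which encodes SREBP2 and whose promoter is printed above, had 201.2 and 207 CPM in the RGM knockout and 155 and 181 CPM in the RGM wild-type libraries, against 114, 120.1 and 128 CPM in the run1 knockout and 136 and 113 CPM in the run1 wild-type libraries. Each RGM library lay above each run1 library (log2 fold change 0.61, SE 0.12, adjusted p = 0.00115). Insig1, the retention factor and itself a target of SREBPs, was measured at 57.0 and 47.0 CPM in the RGM knockout and 62.3 and 46.2 CPM in the RGM wild-type libraries, against 26.3, 25.7 and 50.6 CPM in the run1 knockout and 37.5 and 28.6 CPM in the run1 wild-type libraries. Knockout replicate 5 stood above the other run1 libraries and inside the RGM range, so that RGM and run1 overlapped (log2 fold change 0.66, SE 0.21, adjusted p = 0.0205), and Insig1 did not pass when knockout replicate 1, wild-type replicate 1 or wild-type replicate 4 was left out. Scap, the SREBP escort, had 43.2 and 47.0 CPM in the RGM knockout and 29.1 and 44.2 CPM in the RGM wild-type libraries, against 48.4, 81.4 and 47.4 CPM in the run1 knockout and 58.8 and 64.3 CPM in the run1 wild-type libraries. The RGM libraries were all below those of run1 although knockout replicate 4 alone reached 81.4 CPM (log2 fold change -0.55, SE 0.20, adjusted p = 0.0316), and the call was lost without that library, knockout replicate 1 or wild-type replicate 1, 3 or 4. Srebf1, which encodes SREBP1, had a log2 fold change of 0.11 (SE 0.16) and did not pass. The rows of Srebf1, Srebf2 and Scap each also name overlapping transcripts whose reads cannot be separated.

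The mevalonate and isoprenoid steps held the largest rise of the list. Hmgcs1 and Fdps were higher in RGM cells and 6 of 8 genes had no call (25% called, against 45.3% of all tested genes). Hmgcs1 (chromosome 13, 119690351 to 119708260), the HMG-CoA synthase whose promoter holds the TCACNCCAC form, had 235 and 253 CPM in the RGM knockout and 249 and 219 CPM in the RGM wild-type libraries, against 84.9, 110.1 and 163 CPM in the run1 knockout and 91.9 and 87.8 CPM in the run1 wild-type libraries. The RGM libraries formed a narrow group above all run1 libraries, and knockout replicate 5 was the highest of run1. Hmgcs1 averaged 239 ± 14.96 CPM in RGM and 108 ± 32.7 CPM in run1 libraries (SD, n = 4 and 5), 2.28-fold higher (log2 fold change 1.19, SE 0.17, adjusted p = 8.7e-05). Fdps, given above by library, averaged 207 ± 19.4 CPM in RGM and 136 ± 24.2 CPM in run1 libraries without overlap (log2 fold change 0.58, SE 0.13, adjusted p = 0.00278). Mvd, the decarboxylase that ends the mevalonate stretch, had 0.35 (SE 0.18, adjusted p = 0.120). Acat2, the thiolase that starts it, had 0.16 (SE 0.12). The remaining log2 fold changes, of the kinases Mvk and Pmvk, the isomerase Idi1 and Ggps1, lay between -0.22 and -0.01. Idi1 was at 1.97 to 4.48 CPM in RGM and 2.75 to 4.15 CPM in run1 libraries, and its 95% interval of the line difference, from -0.88 to 0.55, was the widest of the list.

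From squalene to cholesterol 4 genes were higher in RGM cells, 2 were lower and 5 did not pass. The share called was 54.5%, against 45.3% of all tested genes. Dhcr7, the reductase of the last step to cholesterol, had 144 and 142 CPM in the RGM knockout and 124 and 101 CPM in the RGM wild-type libraries, against 93.7, 51.6 and 95.9 CPM in the run1 knockout and 79.8 and 71.4 CPM in the run1 wild-type libraries. Every RGM library lay above every run1 library, and knockout replicate 4 was the lowest of all (log2 fold change 0.72, SE 0.17, adjusted p = 0.00372). Hsd17b7, a ketosteroid reductase of the C4 demethylation steps, was at 16.02 and 22.1 CPM in the RGM knockout and 16.2 and 20.9 CPM in the RGM wild-type libraries, against 14.2, 8.77 and 9.83 CPM in the run1 knockout and 11.4 and 12.8 CPM in the run1 wild-type libraries. RGM and run1 were separate, with 16.02 CPM in the lowest RGM library against 14.2 CPM in the highest of run1 (log2 fold change 0.70, SE 0.22, adjusted p = 0.0164), but without wild-type or knockout replicate 2 Hsd17b7 did not pass. Lss, which closes the ring to lanosterol, was higher as well (log2 fold change 0.49, SE 0.18, adjusted p = 0.0413), as was Msmo1 (log2 fold change 0.48, SE 0.17, adjusted p = 0.0327).

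Nsdhl (chromosome X, 72918521 to 72958528), the dehydrogenase that works beside Msmo1 and Hsd17b7 in removing the methyl groups at C4, went the other way. It was measured at 46.4 and 51.7 CPM in the RGM knockout and 50.9 and 43.4 CPM in the RGM wild-type libraries, against 90.8, 100.2 and 105 CPM in the run1 knockout and 117 and 84.8 CPM in the run1 wild-type libraries. The RGM libraries lay close together, and the lowest run1 library was above all of them. Nsdhl averaged 48.1 ± 3.91 CPM in RGM and 99.5 ± 12.4 CPM in run1 libraries (SD, n = 4 and 5), 2.07-fold lower (log2 fold change -1.05 with an SE of 0.14, adjusted p = 5.7e-05). Sc5d, the sterol C5 desaturase, was lower as well (log2 fold change -0.50, SE 0.16, adjusted p = 0.0181). Thus the calls of 3 enzymes of 1 demethylation sequence were split, Msmo1 and Hsd17b7 higher and Nsdhl lower. Of these only Nsdhl was called within each genotype. Msmo1 overlapped, at 271 to 305 CPM in RGM and 146 to 302 CPM in run1 libraries. Squalene synthase Fdft1 had -0.21, squalene epoxidase Sqle 0.17, the lanosterol demethylase Cyp51 0.11, the sterol isomerase Ebp 0.09 and the reductase Tm7sf2 -0.13 as log2 fold changes without a call. The Tm7sf2 row also names the neighbouring gene Vps51, so its value belongs to both. Stard4 had 9.93 and 9.87 CPM in the RGM knockout and 11.6 and 11.8 CPM in the RGM wild-type libraries, against 17.7, 9.40 and 9.01 CPM in the run1 knockout and 10.9 and 9.42 CPM in the run1 wild-type libraries. All but knockout replicate 3 lay between 9.01 and 11.8 CPM, and Stard4 did not pass (log2 fold change -0.06, SE 0.26, adjusted p = 0.872).

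**Figure D3:**
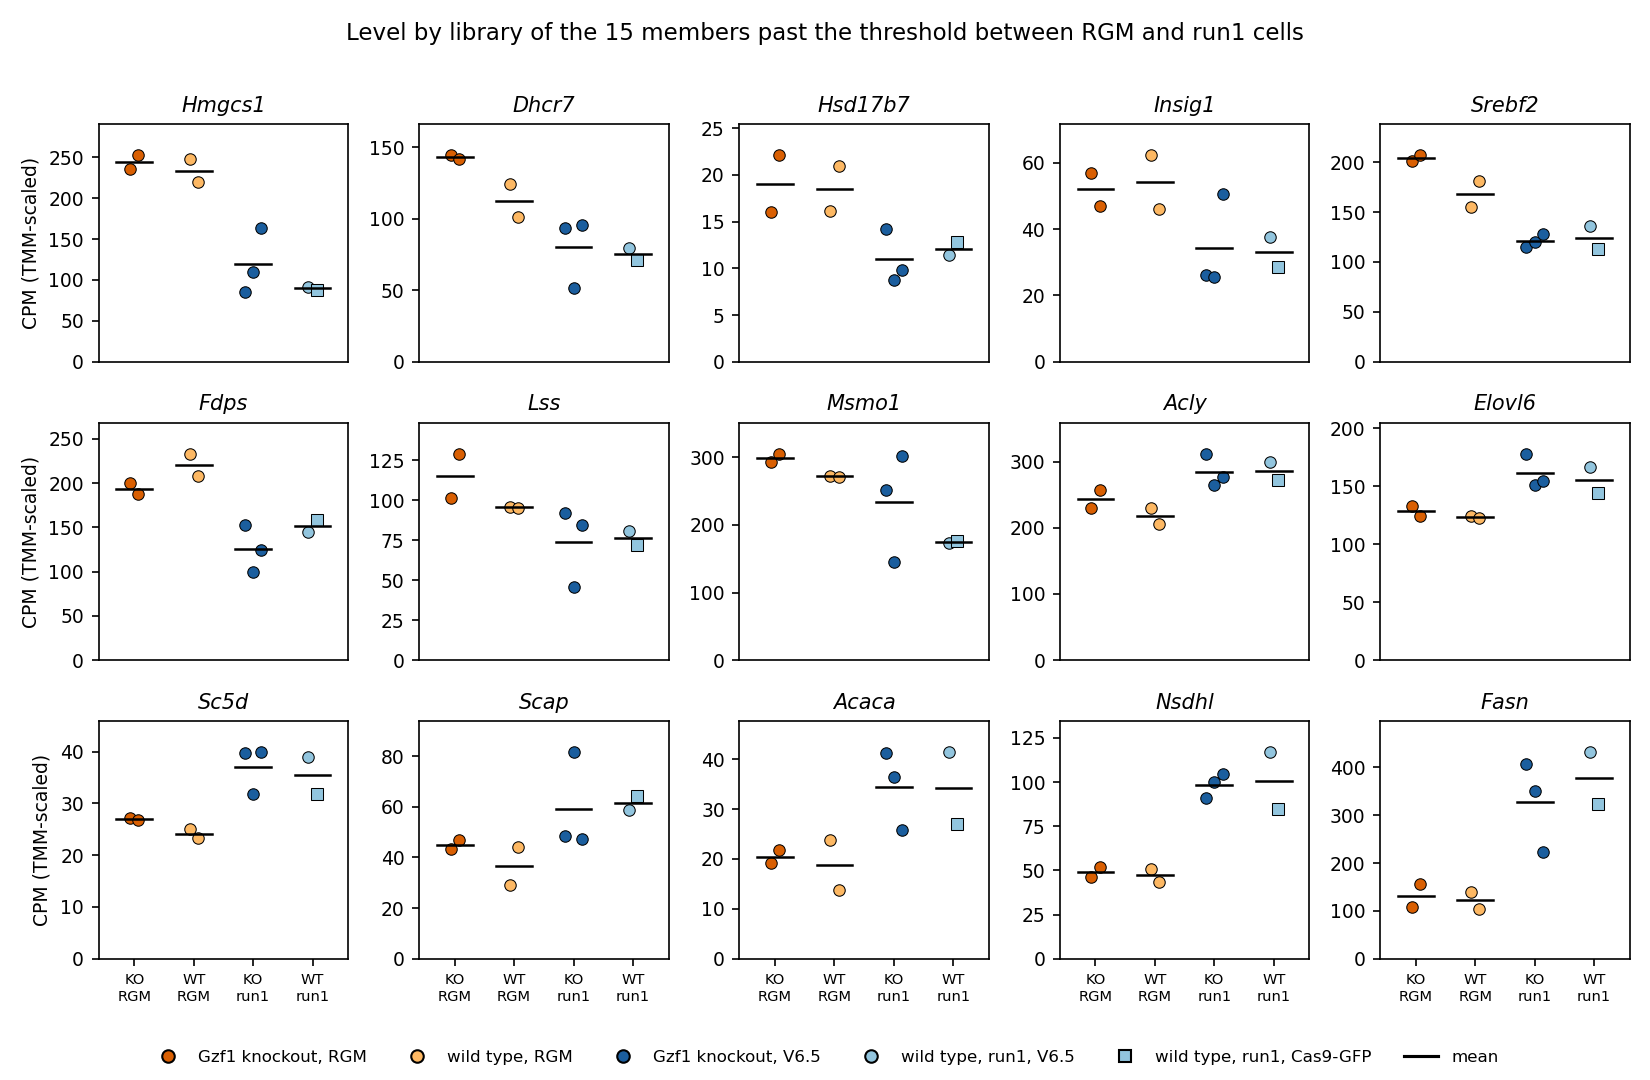
Level in each library of the 15 members past the threshold between RGM and run1 cells, ordered by log2 fold change (y axes, CPM on TMM-scaled library sizes, starting at 0; points are libraries, the square is the Cas9-GFP library, lines are group means). Hmgcs1 sits at 219 to 253 CPM in RGM and 84.9 to 163 CPM in run1 libraries, and Fasn at 104 to 156 CPM in RGM and 222 to 431 CPM in run1 libraries.

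Of the 5 fatty acid genes 4 were lower in RGM cells and 0 higher, where 23.1% of all tested genes were lower. Fasn (chromosome 11, 120805958 to 120825166), the synthase that builds palmitate, had 108 and 156 CPM in the RGM knockout and 140.4 and 104 CPM in the RGM wild-type libraries, against 406, 351 and 222 CPM in the run1 knockout and 431 and 323 CPM in the run1 wild-type libraries. The highest RGM library stayed below the lowest run1 library, knockout replicate 5. Fasn averaged 127 ± 25.3 CPM in RGM and 347 ± 81.8 CPM in run1 libraries (SD, n = 4 and 5), 2.74-fold lower (log2 fold change -1.45 with an SE of 0.19, adjusted p = 6.5e-05). Acaca, the carboxylase that supplies malonyl-CoA to Fasn, was at 19.2 and 21.7 CPM in the RGM knockout and 23.7 and 13.8 CPM in the RGM wild-type libraries, against 41.2, 36.3 and 25.9 CPM in the run1 knockout and 41.4 and 27.0 CPM in the run1 wild-type libraries. Again no RGM library reached a run1 library, although wild-type replicate 1 of RGM and knockout replicate 5 came within a few CPM (log2 fold change -0.80, SE 0.22, adjusted p = 0.00800). Acly, which releases acetyl-CoA from citrate for both branches, was lower by a smaller amount (log2 fold change -0.30 with an SE of 0.11, adjusted p = 0.0430). Elovl6, which elongates palmitate, was lower to a similar extent (log2 fold change -0.32 with an SE of 0.12, adjusted p = 0.0333). Scd2, a stearoyl-CoA desaturase, was measured at 324 and 447 CPM in the RGM knockout and 354 and 306 CPM in the RGM wild-type libraries, against 443, 301 and 419 CPM in the run1 knockout and 441 and 279 CPM in the run1 wild-type libraries. RGM and run1 overlapped throughout, and Scd2 did not pass (log2 fold change -0.06, SE 0.16, adjusted p = 0.784).

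Summed over their members, the mevalonate and isoprenoid steps came to 832 ± 27.2 CPM in RGM and 611 ± 76.7 CPM in run1 libraries (SD, n = 4 and 5), without overlap (803 to 866 CPM and 486 to 680 CPM). The steps from squalene to cholesterol overlapped, at 1120 to 1280 CPM in RGM and 999.7 to 1254 CPM in run1 libraries. Fatty acid genes summed to 861 ± 108 CPM in RGM and 1201 ± 164 CPM in run1 libraries, again without overlap (753 to 1006 CPM and 1045 to 1380 CPM). A sum is led by its most abundant genes, and these sums were not tested. In the mevalonate list only Hmgcs1 (means of 239 CPM in RGM and 108 CPM in run1) and Fdps (207 and 136 CPM) passed. In the fatty acid list Fasn averaged 127 CPM in RGM and 347 CPM in run1. Scd2, without a call, averaged 358 and 376 CPM. All 29 members together came to 3034 to 3521 CPM in RGM and 2889 to 3398 CPM in run1 libraries. By genotype the mevalonate sums were 486 to 839 CPM in knockout and 593 to 866 CPM in wild-type libraries, and the fatty acid sums were 815 to 1380 CPM in knockout and 753 to 1378 CPM in wild-type libraries.

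**Figure D4:**
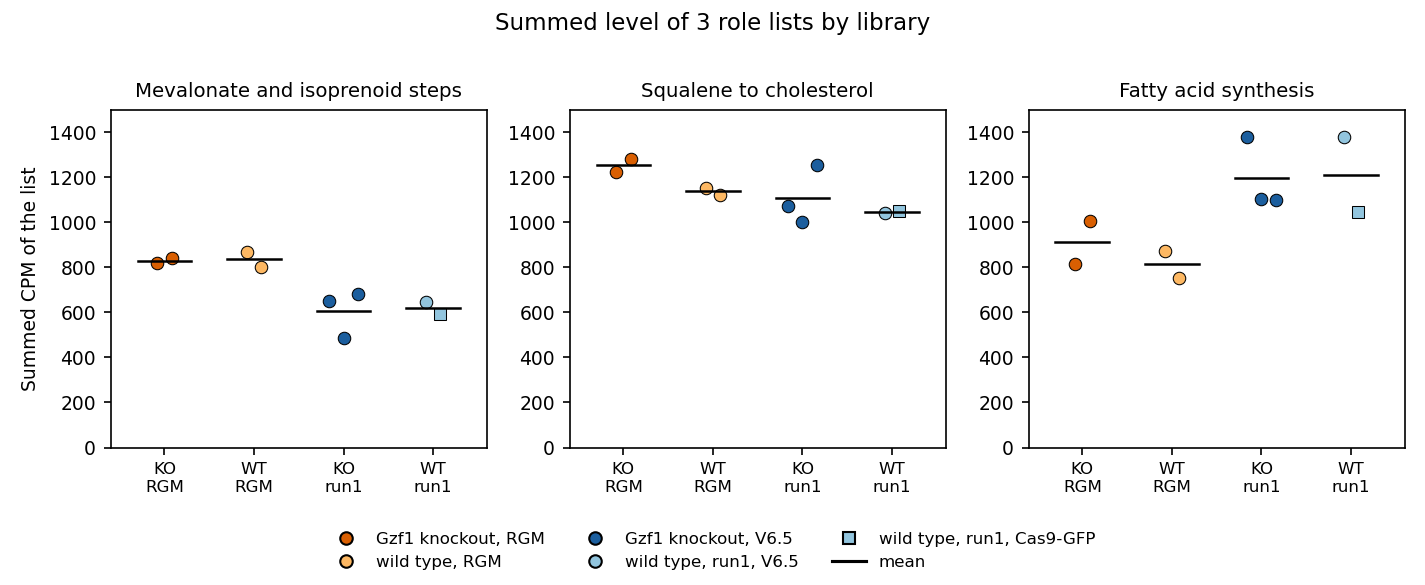
Summed CPM of the mevalonate and isoprenoid steps, the steps from squalene to cholesterol and fatty acid synthesis in each library (y axis, CPM from 0; points are libraries, the square is the Cas9-GFP library, lines are group means). RGM libraries lie above run1 libraries at 803 to 866 CPM for the first list and below them at 753 to 1006 CPM for the third.

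The line difference was then taken within each genotype, from a fit with 4 groups and 1 estimate of spread. In knockout cells, where run1 holds V6.5 libraries alone, 6 members (20.7%) passed, beside 25% of tested genes. Srebf2, Hmgcs1, Fdps and Dhcr7 were higher in RGM cells and Nsdhl and Fasn lower. In wild-type cells 3 members (10.3%) passed, beside 24.4% of tested genes, with Hmgcs1 higher and Nsdhl and Fasn lower. These 3 were the members called in both genotypes. Hmgcs1 had log2 fold changes of 1.03 (SE 0.23) in knockout and 1.38 (SE 0.26) in wild-type cells. Nsdhl had -1.01 (SE 0.20) in knockout and -1.09 (SE 0.22) in wild-type cells, and Fasn had -1.31 (SE 0.27) in knockout and -1.62 (SE 0.29) in wild-type cells. All 15 members called over all libraries had the same sign in both genotypes. They were picked by the line effect over these same libraries, so a shared sign was likely from the start. The test of whether the line difference differs between genotypes is the interaction given above, with 0 calls. The count in knockout cells became 1 without knockout replicate 1 and 2 without knockout replicate 2, and that in wild-type cells became 7 without knockout replicate 4, 5 without knockout replicate 5 and 6 without the low-count filter.

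Of the 15 calls over all libraries, 7 passed in all 12 alternative fits, those of Acaca, Dhcr7, Fasn, Fdps, Hmgcs1, Nsdhl and Srebf2. The other 8, those of Acly, Elovl6, Hsd17b7, Insig1, Lss, Msmo1, Sc5d and Scap, were lost in at least 1 of the 9 fits that left out a library. Hsd17b7 passed in 7 of the 9, Insig1 in 6, Sc5d in 5, Lss and Scap in 4, Elovl6 and Msmo1 in 3 and Acly in 2. Besides the losses already given, Sc5d did not pass without knockout replicate 1 or 2 or wild-type replicate 2 or 3, and Lss without knockout replicate 1 or 2 or wild-type replicate 1, 2 or 4. Msmo1 did not pass without knockout replicate 1 or 2 or any 1 of the wild-type libraries, Elovl6 without knockout replicate 1, 2 or 3 or wild-type replicate 1, 2 or 3, and Acly without knockout replicate 1, 2 or 3 or any 1 of the wild-type libraries. The highest adjusted p of these fits was 0.163, for Lss. The count of 15 became 8 without knockout replicate 1 and 9 without knockout replicate 2, wild-type replicate 1 or wild-type replicate 2, each of them an RGM library. Without the Cas9-GFP library it was 10, with 5 higher and 5 lower.

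Other genes of the pathways, chosen as lists outside the 29, were also divided between RGM and run1 cells. Of 15 genes of sterol control and transport 5 were higher and 7 lower in RGM cells (80% called, against 45.3% of all tested genes). Soat1, which esterifies cholesterol for storage, averaged 35.5 ± 5.12 CPM in RGM and 13.96 ± 2.76 CPM in run1 libraries (log2 fold change 1.34, SE 0.20, adjusted p = 0.000101), and the exporter Abcg1 was also higher (log2 fold change 1.30, SE 0.29, adjusted p = 0.00223). Of 11 genes that draw isoprenoids into dolichol, ubiquinone and prenylated proteins 1 was higher, Nus1 (log2 fold change 0.34, SE 0.13, adjusted p = 0.0443), and 1 lower, Zmpste24 (log2 fold change -0.73, SE 0.22, adjusted p = 0.0154), 18.2% called. Nus1 is a subunit of the dolichol-making prenyltransferase and Zmpste24 a protease that trims prenylated prelamin A. Coq2, of ubiquinone synthesis, had 0.57 (SE 0.26) without a call.

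Of 20 further genes of fatty acid metabolism 6 were higher and 5 lower in RGM cells (55% called, against 45.3% of all tested genes). Acss2, which makes acetyl-CoA from acetate, was at 21.8 and 22.9 CPM in the RGM knockout and 23.5 and 20.9 CPM in the RGM wild-type libraries, against 4.84, 7.10 and 10.3 CPM in the run1 knockout and 7.14 and 7.54 CPM in the run1 wild-type libraries. All RGM libraries lay above those of run1 (log2 fold change 1.59, SE 0.23, adjusted p = 9.5e-05). Acsl1, which activates long fatty acids as CoA esters, averaged 44.8 ± 2.29 CPM in RGM and 15.7 ± 1.51 CPM in run1 libraries (log2 fold change 1.504, SE 0.15, adjusted p = 5.9e-06), while the desaturase Fads2 was lower (log2 fold change -1.22, SE 0.36, adjusted p = 0.0138). By genotype 0 genes of these 3 lists passed, and at an unadjusted p under 0.05 there were 1 of 15, 0 of 11 and 1 of 20, where 2.32% of all tested genes were.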

How the data were processed

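Per the labels' protocols, poly(A)+ RNA libraries were made with MARS-seq2.0. The authors deposited raw counts per gene symbol in 1 table. The submitters' processing notes name STAR, DESeq2 and mm10, with no version or role. How strand and molecular identifiers were handled was not given in the sources used here. Of the rows, 92 spike-ins (1 with a count) entered neither library sizes nor tests, and 10 member rows are merged with other symbols. Groups came from the labels. Genes were kept with filterByExpr (minimum count 10), scaled with TMM and tested with edgeR 4.0.16 (limma 3.58.1, R 4.3.3) by the robust quasi-likelihood F test on run and genotype, or on 4 groups (genotype by run). P-values were adjusted by Benjamini-Hochberg over all 12645 tested genes, with a threshold of 0.05. Every adjusted p without another tool's name is edgeR's. SEs are those implied by the F statistic. CPM uses TMM-scaled library sizes, and floors and intervals cover counting error or library spread only. Scripts were tested on simulated data. Alternatives were DESeq2 1.42.0, its size factors in edgeR, no filter, each library left out and a replicate block. Values by library are given for the 10 largest called line differences, the 3 smallest genotype p-values and the most abundant gene of each role. Further genes named are members given by value or count, up to 3 genes of each other list, and Gzf1. A gene that this rule also named is not reported here. The values by library of Acss2 were added after they were seen. Promoters are from RefSeq (GRCm38.p6). The members, lists and tests were chosen with earlier results of these data known.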

Additional observations from a re-analysis of the deposited data

Results flagged for a closer look

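In each genotype the libraries of every member were screened for 1 library far from the others, 58 groups in all, and 2 stood out. Chance flags about 1 in 20 where all libraries of a group come from 1 population. Here each group pooled RGM and run1 libraries, which differed for 15 of 29 members, so that rate need not hold. A library far from others of its own run could be missed. Scap, the SREBP escort, was at 81.4 CPM in knockout replicate 4, while the other knockout libraries lay between 43.2 and 48.4 CPM, a gap of 0.865 of the range. Without that library the genotype value of Scap was -0.05 rather than 0.09 on the log2 scale, and its line call was lost. Stard4, the sterol carrier, was at 17.7 CPM in knockout replicate 3, while the other knockout libraries lay between 9.01 and 9.93 CPM, a gap of 0.895 of the range. Without that library the genotype value of Stard4 was -0.19 rather than 0.05. Both libraries are V6.5 cells of run1. The cause was not tested.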

How the results depend on the processing

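The 0 member calls by genotype stayed at 0 in all alternatives. The 4 genes called by genotype became 7 in DESeq2, 35 without the filter and 2 to 4 with 1 library left out. Line calls among members were 15 (8 higher, 7 lower) with DESeq2 size factors, in DESeq2 and without the filter, and 8 to 16 (5 to 9 higher, 3 to 7 lower) with 1 library left out. In wild-type cells the 3 line calls became 6 without the filter and 2 to 7 with 1 library left out, and in knockout cells the 6 became 1 to 9. No member that was called changed sign.

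Members without a call did change sign. For genotype, Nsdhl was -0.0033 with DESeq2 size factors, -0.0059 in DESeq2 and -0.014 without the filter. With 1 library left out, genotype values ran over -0.20 to 0.066 for Fasn, -0.089 to 0.13 for Nsdhl, -0.078 to 0.22 for Acaca, -0.17 to 0.019 for Hsd17b7, -0.21 to 0.091 for Insig1, -0.053 to 0.18 for Scap and -0.19 to 0.13 for Stard4. Line values ran over -0.0057 to 0.26 for Srebf1, -0.12 to 0.051 for Mvk, -0.39 to 0.048 for Idi1, -0.049 to 0.018 for Ggps1, -0.024 to 0.21 for Ebp, -0.15 to 0.15 for Stard4 and -0.17 to 0.077 for Scd2. The difference of the genotype effect between runs ran over -0.056 to 0.25 for Fdps. The cause was not tested.

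The replicate numbers gave no pairing that held in both runs. Deviations from group means, over 12645 genes, correlated at -0.0652 for number 1 and, identically by construction, number 2. The correlations were 0.299 for number 3 and 0.335 for number 4. Wild-type replicates 3 and 4 alone make up their group, so their deviations are opposite by construction. Libraries numbered 3 and 4 correlated best with their own number, and those numbered 1 and 2 did not. With the replicate block 6 genes and 0 members were called by genotype, Fasn was 0.053 and Nsdhl -0.015. Gzf1 passed with the block (-1.58, adjusted p = 0.027) and without the filter (adjusted p = 5.0e-05), and its adjusted p over the other alternatives was 0.339 to 1.

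Precision by genotype was lowest for Idi1, at an SE of 0.33, and Stard4, at 0.26, both at low counts. The RGM contrast is limited by 2 libraries of each genotype and by an estimate of spread shared with run1.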

Other observations

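Among the 3 V6.5 knockout libraries, knockout replicate 4 held the lowest level of 16 of the 29 members (55.2%), against 36.6% of all tested genes. For the 19 genes of the mevalonate and squalene-to-cholesterol steps it was the lowest in 11 (57.9%), and for the 5 fatty acid genes in 3 (60%). Its Lss, at 45.9 CPM, compared with 92.2 and 84.6 CPM in knockout replicates 3 and 5, and its Mvd, at 43.4 CPM, with 84.9 and 74.1 CPM. Fdft1 went the other way, at 154 CPM against 101 and 129.7 CPM, as did Ebp, at 187 CPM against 135 and 98.2 CPM. Of the 5 fatty acid genes, 5 were highest in knockout replicate 3, as were 3792 of all 12645 tested genes. These genes were chosen after their values were seen, and the libraries' order was not tested.

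Within RGM and within run1, which includes the Cas9-GFP library beside V6.5 libraries, the highest library over the lowest was a median 1.25-fold for members and 1.35-fold for all tested genes in RGM cells, and 1.60-fold for members and 1.75-fold for all tested genes in run1. These ratios were neither matched on level nor tested.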
